A study of Drosophila melanogaster with 27 samples.

Results

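The genes examined here encode the PIWI-interacting RNA (piRNA) pathway of Drosophila melanogaster. They were chosen from a list of 31 FlyBase symbols, of which 30 matched a gene identifier among the 17714 genes measured. The symbol trim had no match and was dropped, and boot was matched with a difference in case only. By chromosome arm, 7 members lie on 2L, 11 on 2R, 6 on 3L, 4 on 3R and 2 on X.

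piRNAs are small RNAs that guide PIWI-family Argonaute proteins to transposon transcripts in the germline. Long precursors are transcribed from heterochromatic clusters, exported, cut at the mitochondrial surface and amplified in nuage, a perinuclear granule, by alternating cleavage that is called ping-pong. In flies the mRNAs of these proteins, like piRNAs themselves, are made in the ovary and loaded into the egg. The early embryo therefore starts with maternal copies of them, and many maternal mRNAs are cleared at the maternal-to-zygotic transition.

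Poly(A) RNA was sequenced from 27 libraries in 9 groups of 3. In the sorted experiment, embryos at nuclear cycle 9, before broad zygotic transcription, came from wt (w1118) mothers or from mothers expressing Upf1, Nos, a Upf1-Nos chimera or Upf1-NosL7. Nos (Nanos) is a translational repressor bound to mRNA, Upf1 is a helicase of nonsense-mediated decay, and the L7 form carries a small deletion at the end of Nos and is not recruited to hb mRNA. The 4 transgenes were UASp constructs ending in the nos 3′ UTR, driven in the maternal germline by alpha-tubulin GAL4-VP16, so each transgenic group differs from w1118 in the driver as well. Upf1-Nos embryos have abnormal nuclei and were sorted by approximate age. In the unsorted experiment, embryos were collected at 0-1h and 2-3h from wt (w1118) mothers or from nos- mothers (nosBN over the deficiency Df(3R)Exel6183). Nothing in the labels says which separate matings gave the replicates, so p-values measure the spread between these libraries.

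Library totals ranged from 14022879 to 22002028 counts in the sorted and from 15253031 to 21661085 in the unsorted experiment. nos was at 0.207 to 0.689 normalised CPM (counts scaled to the size of the library) in the nos- libraries of 0-1h against 567 to 645 in wt. Upf1 rose to between 405 and 765 in the Upf1 group from 34.1 to 62.4 in wt. In Nos embryos, nos was at 364 to 380 against 326 to 404 in wt. In Upf1-Nos embryos neither parent gene was above wt (Upf1 15.4 to 28.6, nos 49.1 to 56.4), and in Upf1-NosL7, nos was at 230.9 to 288, below wt, and Upf1 at 52.3 to 68, overlapping wt, so neither chimera was visible as a rise of its parent genes. In Upf1-Nos, hb, the known Nos target, was at 0.872 to 1.03 against 100.5 to 156 in wt. The 14 ovarian somatic markers summed to at most 0.486 CPM in any sorted library, with 10 to 12 of them, the chorion genes Cp15 and Cp36 included, at 0 in each group, and to at most 2.88 CPM in any unsorted one. wt replicate 3 of cycle 9 stood apart on long transcripts: relative to the mean of the other wt libraries, the 10 members with a main isoform of at least 3000 nt had a median ratio of 1.59 there, and the 13 members under 2000 nt had 0.914. Calls in Upf1-Nos against wt that change without it are given both ways.

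The pathway's transcripts differed widely in level per length. In wt at cycle 9, squ, a nuage component, was the most abundant member at 299.6 ± 15.2 TPM (a level corrected for transcript length, ± SD, n = 3), and its libraries did not overlap those of AGO3, the next, at 167 ± 50.3 TPM. AGO3 and rhi (159 ± 6.01 TPM) overlapped, as did krimp (122 ± 33.9 TPM), arx (114 ± 1.00 TPM), piwi (113 ± 21.4 TPM) and Gasz (112 ± 11.2 TPM). Of the members with the lowest levels, cuff was at 5.63 ± 1.11 TPM, qin at 4.44 ± 2.30 TPM and fs(1)Yb, a gene known for its role in ovarian somatic cells, at 0.120 ± 0.113 TPM. The remaining 20 members lay between 17.0 TPM for SoYb and 82.6 TPM for boot.

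Upf1-Nos against wt asks which maternal mRNAs the chimera removes. In this comparison 9 of 29 members tested (31.0%) were called lower, that is, with an adjusted p under 0.05 in edgeR's quasi-likelihood test over all genes and a change beyond 2-fold. These were boot, cuff, shu, del, tapas, Gasz, armi, piwi and spn-E. Among all 6581 genes tested, 39.3% were called lower, so the share of members was not above that of genes in general. The median log2 fold change was -0.46 over the members and -0.50 over all genes. These values use the study's correction, which scales the Upf1-Nos libraries on 20 abundant genes. Without it the median of all genes moved from -0.51 to 0.05, and the calls over all genes went from 97.4% to 76.2% lower, with the rest higher. Without the correction 8 members were called lower and 5 higher, beside 2074 and 647 of all genes. qin was left out here, as it was called in Upf1 alone.

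**Figure D1:**
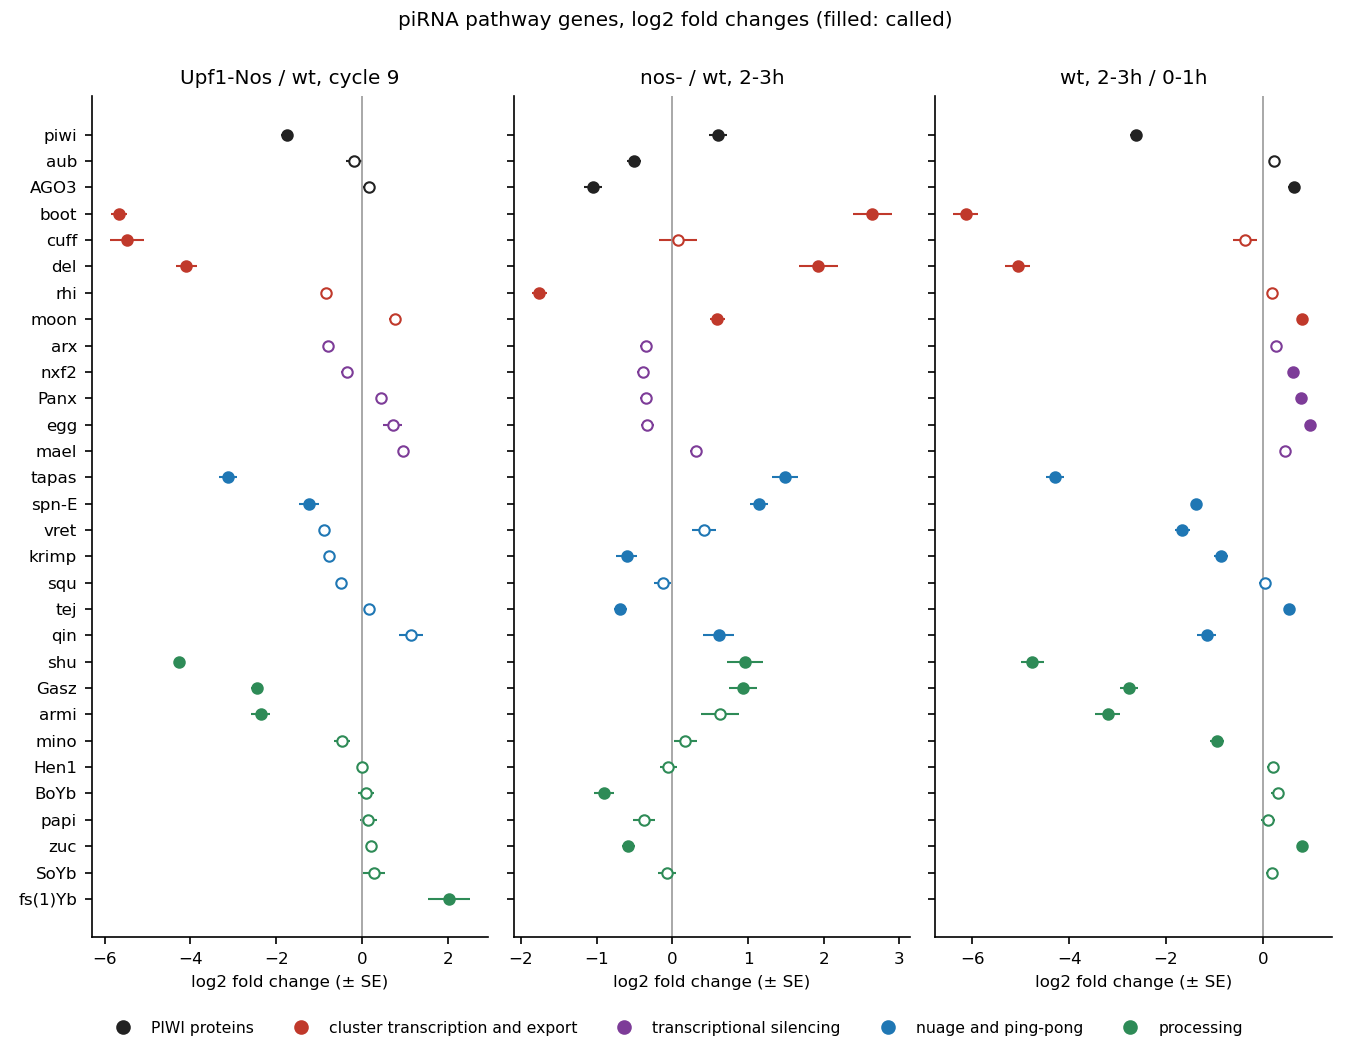
Log2 fold change (x axis, with SE) of each member (y axis), coloured by role, in Upf1-Nos against wt at cycle 9, nos- against wt at 2-3h, and 2-3h against 0-1h in wt. Filled points were called, and open points were not or, for qin in the first panel, were left out. boot lies at -5.67 in the first panel, 2.64 in the second and -6.13 in the third, whereas cuff lies at -5.48, 0.08 and -0.37.

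Of the genes for transcription and export of piRNA clusters, 3 of 5 were called lower, beside 39.3% of all genes. Neither this count nor those of the other roles below were tested against that share. boot, which directs export of cluster transcripts, was at 115, 151 and 128 normalised CPM in wt and at 3.14, 1.89 and 2.72 in Upf1-Nos. Its change was 51.0-fold (log2 -5.67 ± 0.18 SE, adjusted p = 3.86e-12). All wt libraries were above all Upf1-Nos libraries, as they were for each of the 9 members called lower. cuff, a partner of rhi in the complex that protects cluster transcripts, was at 4.72, 6.43 and 5.82 normalised CPM in wt and at 0, 0.194 and 0.157 in Upf1-Nos, the latter resting on 0, 4 and 3 counts. Its log2 change was -5.48 ± 0.40 (adjusted p = 7.63e-09). The cuff call therefore rests on one of the lowest levels of the pathway. del, which joins rhi and cuff in that complex, was at 101, 129.5 and 157 normalised CPM in wt and at 9.52, 4.46 and 8.78 in Upf1-Nos. Its log2 change was -4.09 ± 0.25 (adjusted p = 7.85e-10).

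The other members of this role did not share that loss. rhi, the HP1-family protein that marks the clusters, had a log2 change of -0.83 ± 0.11, short of 2-fold, and -0.25 on the uncorrected scale. moon, which starts transcription within clusters, had 0.77 ± 0.14, and 1.36 uncorrected, where it was called higher. So within one complex, del and cuff transcripts were reduced beyond 2-fold and rhi was not.

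The PIWI genes fell on both sides of the call. piwi, the nuclear protein that directs transcriptional silencing, was at 256, 292 and 309.6 normalised CPM in wt and at 95.7, 69.7 and 89.2 in Upf1-Nos. It fell 3.37-fold (log2 -1.75 ± 0.13, adjusted p = 6.31e-09), with no overlap of libraries. aub, the cytoplasmic PIWI protein that carries most piRNAs into the pole plasm, was at 117, 85.9 and 142 normalised CPM in wt and at 116, 83.8 and 105 in Upf1-Nos. Its libraries overlapped, and its log2 change of -0.18 ± 0.19 (adjusted p = 0.411) took the other sign on the uncorrected scale (0.38) and without wt replicate 3 (0.04). AGO3, the ping-pong partner of Aub, was at 343, 348 and 476 normalised CPM in wt and at 460.2, 431 and 414 in Upf1-Nos. Its libraries overlapped as well, through wt replicate 3, with a log2 change of 0.16 ± 0.14 (adjusted p = 0.304). Without that replicate the change of AGO3 was 0.38 (adjusted p = 0.00832), short of 2-fold. Over all alternatives it ranged from 0.013 to 0.744.

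Among the nuage genes, 2 of 6 tested were called lower, beside 39.3% of all genes. tapas, a Tudor-domain protein of nuage, was at 96, 128 and 137 normalised CPM in wt and at 16.9, 8.96 and 15.5 in Upf1-Nos. Its log2 change was -3.13 ± 0.21 (adjusted p = 2.45e-09). spn-E, a helicase needed for ping-pong, had 148 to 249 normalised CPM in wt and 53.4 to 97.7 in Upf1-Nos. Its log2 change of -1.24 ± 0.23 (adjusted p = 2.37e-04) was past 2-fold with all libraries but was -0.90 without wt replicate 3 and -0.70 on the uncorrected scale, short of the threshold in both. spn-E was the one depleted member whose call was lost with either choice. vret (log2 -0.88), krimp (-0.76), squ (-0.50) and tej (0.18) were not called, and squ was at 0.09 on the uncorrected scale.

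Among the genes for piRNA processing and loading, 3 of 10 were called lower and 1 higher, beside 39.3% and 1.05% of all genes. shu, a co-chaperone for loading of PIWI proteins, was at 36.3, 44.3 and 34.9 normalised CPM in wt and at 2.06, 1.84 and 2.09 in Upf1-Nos, with a log2 change of -4.26 ± 0.13 (adjusted p = 3.27e-12). Gasz, a scaffold on the mitochondrial outer membrane, was at 166, 196 and 166 normalised CPM in wt and at 37.9, 26.1 and 32.4 in Upf1-Nos, with a log2 change of -2.46 ± 0.13 (adjusted p = 1.44e-10). armi, the helicase that Gasz holds at mitochondria, had 159 to 244 normalised CPM in wt and 25.1 to 46.7 in Upf1-Nos, a log2 change of -2.37 ± 0.21 (adjusted p = 8.32e-08). Both members of this Gasz and armi pair were therefore lower in every Upf1-Nos library. Exons of armi overlap those of CG46463 on the same strand in 99.6% of their length, and CG46463 was not analysed here.

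Apart from fs(1)Yb, the other processing genes were not called. zuc, the endonuclease that cuts precursors, had a log2 change of 0.22, and mino, another mitochondrial factor, had -0.46 (0.09 uncorrected). papi (0.15), BoYb (0.09), SoYb (0.29) and Hen1 (0.00), which methylates the end of mature piRNAs, were not called either. Without wt replicate 3, SoYb was at 0.76 (adjusted p = 0.00397), papi at 0.38, BoYb at 0.36 and Hen1 at 0.15, still short of 2-fold. All zuc libraries of Upf1-Nos were above wt. fs(1)Yb was called higher at 0.177, 0.187 and 0.667 normalised CPM in wt and at 1.73, 1.40 and 1.46 in Upf1-Nos (log2 2.03 ± 0.50, adjusted p = 0.00212). It had 28 to 32 counts in the Upf1-Nos libraries and at most 15 in any other sorted library, and passed the filter on low counts only through that group, so it had to differ. The 1.05% of all genes called higher gives the background of that count, which was 1 of 29 members (3.45%). Without wt replicate 3, 3 members were called higher, as egg (log2 1.08, adjusted p = 1.86e-04) and mael (1.07, adjusted p = 1.3e-06) then joined fs(1)Yb (3.07).

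None of the 5 transcriptional silencing genes was called with all libraries, where 39.3% of all genes were lower and 1.05% higher. arx, a Piwi cofactor, was at log2 -0.79 and nxf2, of the complex that silences beside Piwi, at -0.36 (0.21 uncorrected). Panx of that complex was at 0.44, egg, a histone methyltransferase, at 0.72 and mael at 0.96. On the uncorrected scale Panx (1.00), egg (1.28) and mael (1.53) were called higher.

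**Figure D2:**
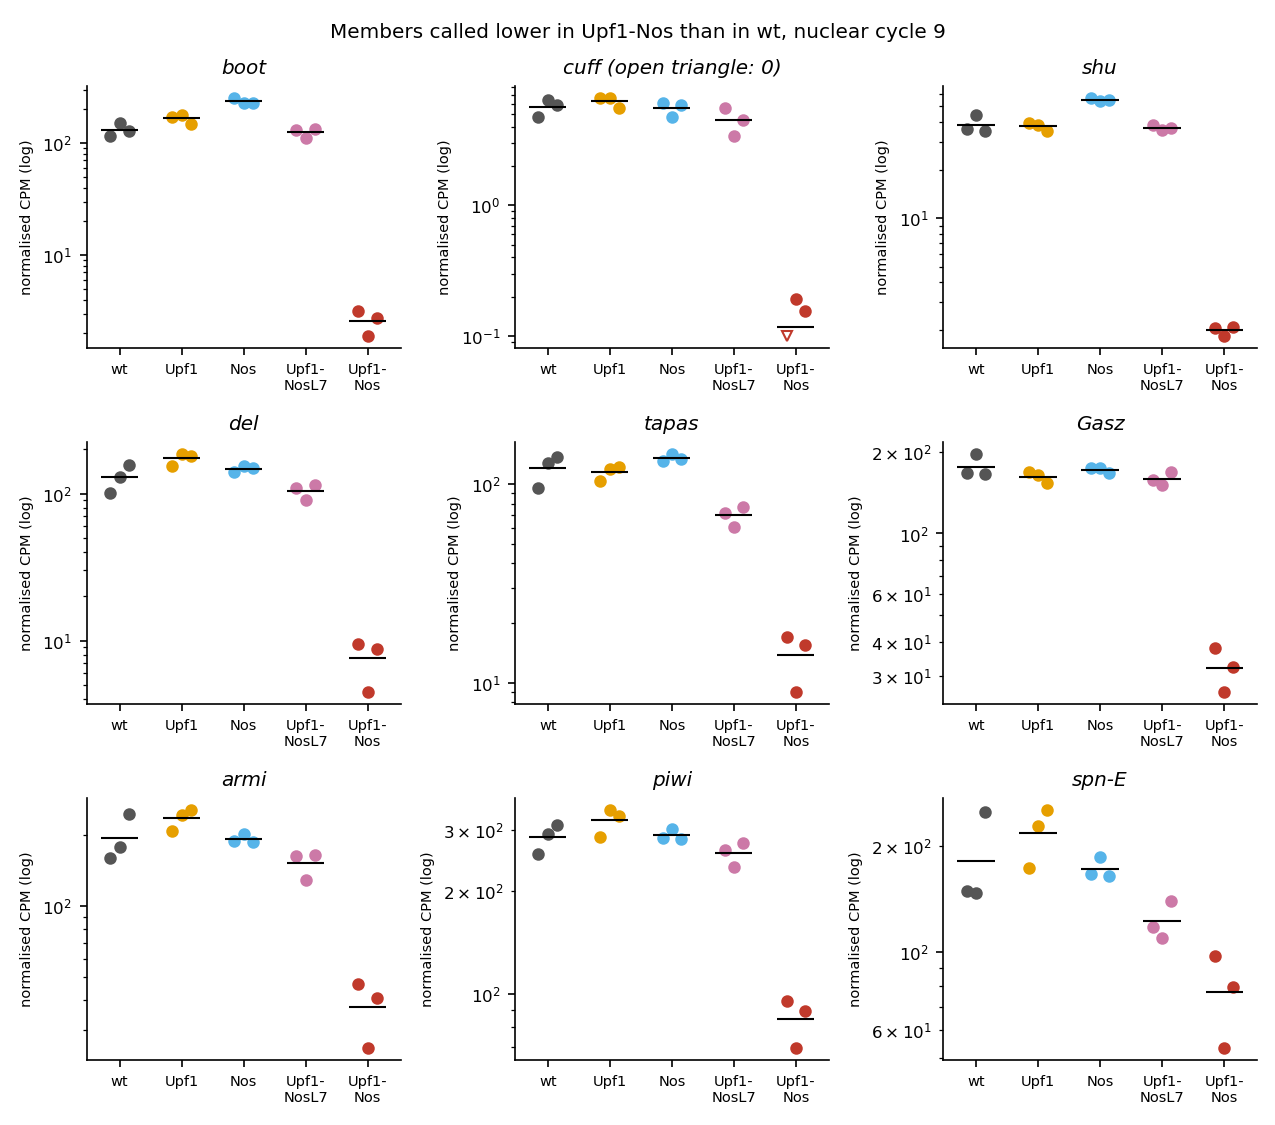
Normalised CPM (y axis, log scale) of the 9 members called lower in Upf1-Nos, in the 3 libraries of each sorted genotype (x axis). Bars are means, and the open triangle marks a library at 0. In each panel the Upf1-Nos libraries lie below all others, as for boot at 1.89 to 3.14 against at least 112.

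None of the members depleted by Upf1-Nos was called lower in a control genotype. In Upf1-NosL7 against wt, 0 of 29 members were called lower and 0 higher by edgeR, with 4 lower and 3 higher at an unadjusted p under 0.05 and 0 by DESeq2. Over all genes 1.75% were called lower and 0.988% higher. tapas had the lowest value of the members in that comparison, with 71.7, 61.1 and 77 normalised CPM and a log2 change of -0.79 ± 0.19 (adjusted p = 0.0135), short of 2-fold. Like tapas, spn-E lay below every wt library in Upf1-NosL7, at 110 to 139 normalised CPM against 148 to 249. The other depleted members overlapped wt there. How many of all genes were apart was not counted. In Upf1 against wt, 0 of 30 members were called lower (2.30% of all genes, with 3 members at an unadjusted p under 0.05 and 0 by DESeq2). qin, a Tudor-domain protein that keeps Aub and AGO3 partnered, was the 1 member called higher there (1.72% of all genes), at 39.4, 55.9 and 73.9 normalised CPM against 16.5, 19.1 and 34.1 in wt (log2 1.27 ± 0.28, adjusted p = 0.00938). The qin call was lost without Upf1 replicate 3 and without wt replicate 2.

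Set against Upf1-NosL7 itself, Upf1-Nos had 8 of 29 members lower, against 38.0% of all genes. They were the 9 above without spn-E, whose log2 change was -0.67 ± 0.23. fs(1)Yb was the 1 member called higher, where 4.10% of all genes were. The log2 change of boot was -5.61, of cuff -5.15, of shu -4.20, of del -3.79, of tapas -2.35, of Gasz -2.31, of armi -2.02 and of piwi -1.60. Upf1-Nos libraries are shared by this comparison and the one with wt.

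The annotated 3′ UTR, through which Nos is known to reach hb mRNA, had a median of 234 nt in the 9 depleted members and 217.5 nt in the other 20. It was 245.5 nt in all depleted genes against 238 nt in the rest. Their median level in wt was 48.3 TPM against 63.2 TPM in the members not depleted, and in all genes it was 37.9 TPM against 57.7 TPM. These are descriptions with no test.

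Single isoforms gave nearly the same set. Of the members' most abundant isoforms in wt, 8 of 29 tested were called lower and 0 higher. The share of all isoforms called is not given here, so this count has no background beside it. piwi was the member lost. Its main isoform averaged 283 normalised CPM in wt and 36.5 in Upf1-Nos (log2 -2.96 ± 1.16, adjusted p = 0.0509), and its other isoform 10.5 and 48.6 (log2 2.23 ± 1.09). That other isoform averaged 91.8 in Upf1, 88.3 in Nos and 134 in Upf1-NosL7, so the mean of wt was the lowest of the 5 genotypes for it. The isoforms of tapas differed in size of change, with -5.80 ± 0.46 for the main one and -0.91 ± 0.22 for a shorter one. For aub, a minor isoform, averaging 7.01 normalised CPM in wt, was called lower at -1.74 ± 0.50 (adjusted p = 0.011) while the main one had -0.16 ± 0.19. One isoform of mino was called lower (-1.60 ± 0.19), and its main one was at -0.02 ± 0.19. RSEM divides reads among isoforms by estimate, so values for isoforms that share most exons are uncertain.

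The maternal-to-zygotic transition in wt was followed by comparing 2-3h with 0-1h embryos. Here 12 of 29 members (41.4%) were called lower, by adjusted p and a log2 change beyond 0.5, against 33.0% of all 8445 genes, and 7 (24.1%) were higher, against 34.1%. fs(1)Yb did not pass the count filter in this experiment. The members called lower were boot, del, shu, tapas, armi, Gasz, piwi, vret, spn-E, qin, mino and krimp. The 8445 genes include ones not tested at cycle 9, so their share is not that of maternal mRNAs alone. Among genes also tested at cycle 9 and not called in Upf1, 11 of 28 members and 2698 of 6543 genes were lower. The share called higher was not counted in that set. In RNA of whole embryos, fewer cells of a type, such as pole cells, and less RNA per cell cannot be told apart.

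The transcripts that fell most nearly vanished by 2-3h. boot went from 144, 161 and 139.6 normalised CPM at 0-1h to 2.32, 1.99 and 2.01 at 2-3h, a 70.2-fold fall (log2 -6.13 ± 0.26, adjusted p = 4.35e-09). del went from 193, 202 and 191 to 7.92, 5.31 and 4.32 normalised CPM (log2 -5.07 ± 0.27, adjusted p = 1.48e-08). shu went from 55.8, 59.4 and 46.5 to 2.58, 1.21 and 2.19 normalised CPM (log2 -4.76 ± 0.23, adjusted p = 9.5e-09). No library of one stage overlapped the other for any member called in this comparison.

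tapas went from 212, 212 and 189 to 13.3, 10.3 and 7.86 normalised CPM (log2 -4.29 ± 0.18, adjusted p = 5.02e-09). armi went from 185, 202 and 180.3 to 30.6, 17.8 and 13.2 normalised CPM (log2 -3.21 ± 0.26, adjusted p = 3.31e-07). Gasz went from 99.5, 108 and 103 to 19.4, 15.8 and 10.4 normalised CPM (log2 -2.77 ± 0.19, adjusted p = 9.62e-08). The smaller falls were those of piwi, from between 278 and 289.9 to between 38.9 and 51.4 normalised CPM (log2 -2.61), and of vret (-1.66), spn-E (-1.38), qin (-1.16), mino (-0.94) and krimp (-0.87).

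Of the 5 silencing genes, 3 were called higher, where 34.1% of all genes were, and arx (log2 0.26) and mael (0.46) were not called. egg rose from 167, 149 and 139 to 291, 287 and 310.3 normalised CPM (log2 0.97 ± 0.09, adjusted p = 1.18e-06). Panx rose from 60.4, 71.1 and 65.6 to 119, 110.2 and 110.5 normalised CPM (log2 0.79 ± 0.08, adjusted p = 1.65e-06). nxf2 rose from 102, 114 and 114 to 181, 172 and 158 normalised CPM (log2 0.62 ± 0.08, adjusted p = 1.69e-05). The libraries of the stages were apart for these 3 genes.

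moon rose from 24.3, 22.4 and 21.6 to 33.9, 44.5 and 42.2 normalised CPM (log2 0.82 ± 0.11, adjusted p = 2.2e-05). zuc rose from 32.9, 35.0 and 36.2 to 58.3, 62.0 and 63.2 normalised CPM (log2 0.82 ± 0.09, adjusted p = 5.47e-06). AGO3 rose from 186, 224 and 237 to 343, 344 and 320.1 normalised CPM (log2 0.64 ± 0.12, adjusted p = 3.51e-04). tej, a Tudor-domain protein of nuage, completed the 7 at log2 0.54, a call lost in 7 alternatives (0.368 to 0.468). aub was not called, at 125, 127 and 127 normalised CPM against 164, 155 and 129.9 (log2 0.24 ± 0.09, adjusted p = 0.0312). Without wt replicate 2 of 2-3h, AGO3, nxf2 and tej were no longer past the threshold and 4 members were called higher.

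cuff, which Upf1-Nos reduced to near 0 counts, was at 6.71, 7.02 and 5.19 normalised CPM at 0-1h and at 3.86, 4.71 and 6.03 at 2-3h. These libraries overlapped (log2 -0.37 ± 0.25, adjusted p = 0.191).

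At 0-1h, few members were called in nos- embryos against wt. 3 of 29 (10.3%) were called lower against 6.74% of all genes, namely rhi, AGO3 and BoYb, and 2 (6.90%) were called higher against 10.9%, namely moon and mael. None of the 9 members depleted by Upf1-Nos was called in either direction at this stage. piwi, for example, was at 217, 202 and 201 normalised CPM in nos- and at 278, 289.9 and 287 in wt, a log2 change of -0.46 ± 0.12 (adjusted p = 0.013) that did not pass 0.5. The nos- libraries of armi, spn-E, Gasz and tapas also lay below every wt library. armi, for instance, was at 139 to 151 normalised CPM against 180.3 to 202 in wt. How many of all genes were apart like this was not counted.

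At 2-3h, where the clearance seen in wt can be compared with that in nos-, 9 of 29 members (31.0%) were called higher in nos-, against 18.6% of all genes, and 7 (24.1%) lower, against 8.80%. The 9 were boot, del, tapas, spn-E, shu, Gasz, piwi, qin and moon. In the set also tested at cycle 9 and not called in Upf1, 8 of 28 members and 1297 of 6543 genes were higher in nos-. Same-numbered libraries of nos- and wt deviated together, and with the replicate number as a block 10 members were higher, the added one being armi, at log2 0.63 (adjusted p = 0.0576) without and 0.65 (adjusted p = 0.0262) with the block. The 12 early zygotic markers summed to 2730 to 3920 CPM in nos- and to 4930 to 5200 CPM in wt at 2-3h, with all 12 detected in both, and the 6 adult somatic markers summed to 27.2 to 98.6 CPM in nos- and to 98.2 to 139 CPM in wt. At 0-1h the zygotic markers summed to 431 to 477 CPM in wt and to 400 to 628 CPM in nos-, against 111 to 171 CPM in wt of cycle 9. The adult markers summed to 16 to 74.5 CPM in wt and to 0.512 to 84.6 CPM in nos- at 0-1h, and to at most 0.654 CPM in any sorted library. The 0-1h collections were thus not free of either kind of RNA. The part of these markers in the members' values was not tested.

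By log2 change, boot, del and tapas had the largest excess in nos-. Their roles did not move together. Of the 5 cluster genes 3 were higher and 1, rhi (log2 -1.75), was lower. Of the 7 nuage genes 3 were higher and 2, tej (-0.69) and krimp (-0.60), were lower. Over all genes the shares were 18.6% and 8.80%. boot was at 16.7, 14.8 and 7.89 normalised CPM in nos- and at 2.32, 1.99 and 2.01 in wt (log2 2.64 ± 0.26, adjusted p = 2.81e-05). del was at 28.0, 24.8 and 13.8 normalised CPM in nos- and at 7.92, 5.31 and 4.32 in wt (log2 1.93 ± 0.26, adjusted p = 1.78e-04). tapas was at 34.6, 30 and 23.6 normalised CPM in nos- and at 13.3, 10.3 and 7.86 in wt (log2 1.49 ± 0.18, adjusted p = 9.28e-05). In all of these the libraries of the genotypes did not overlap, and the levels in nos- were still well under those at 0-1h.

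spn-E was the exception in that respect, at 222, 217 and 251 normalised CPM in nos- and at 124, 102 and 86.4 in wt (log2 1.14 ± 0.12, adjusted p = 3.33e-05). In nos- embryos its change from 0-1h to 2-3h was -0.10 ± 0.11 (adjusted p = 0.468). shu was at 3.99, 4.5 and 3.08 normalised CPM in nos- and at 2.58, 1.21 and 2.19 in wt (log2 0.96 ± 0.24, adjusted p = 0.00795). Gasz was at 34.0, 29.4 and 23.9 normalised CPM in nos- and at 19.4, 15.8 and 10.4 in wt (log2 0.94 ± 0.19, adjusted p = 0.00215). piwi followed at 81.8, 70.2 and 61.1 in nos- and 51.4, 49.7 and 38.9 in wt (log2 0.61 ± 0.12, adjusted p = 0.00215). The last 2 members called higher were qin (0.61) and moon (0.60). The qin call was lost in 4 alternatives (0.436 to 0.667, adjusted p up to 0.0831), that of moon without wt replicate 1 (0.492), and that of shu with only the groups compared (adjusted p = 0.0514).

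**Figure D3:**
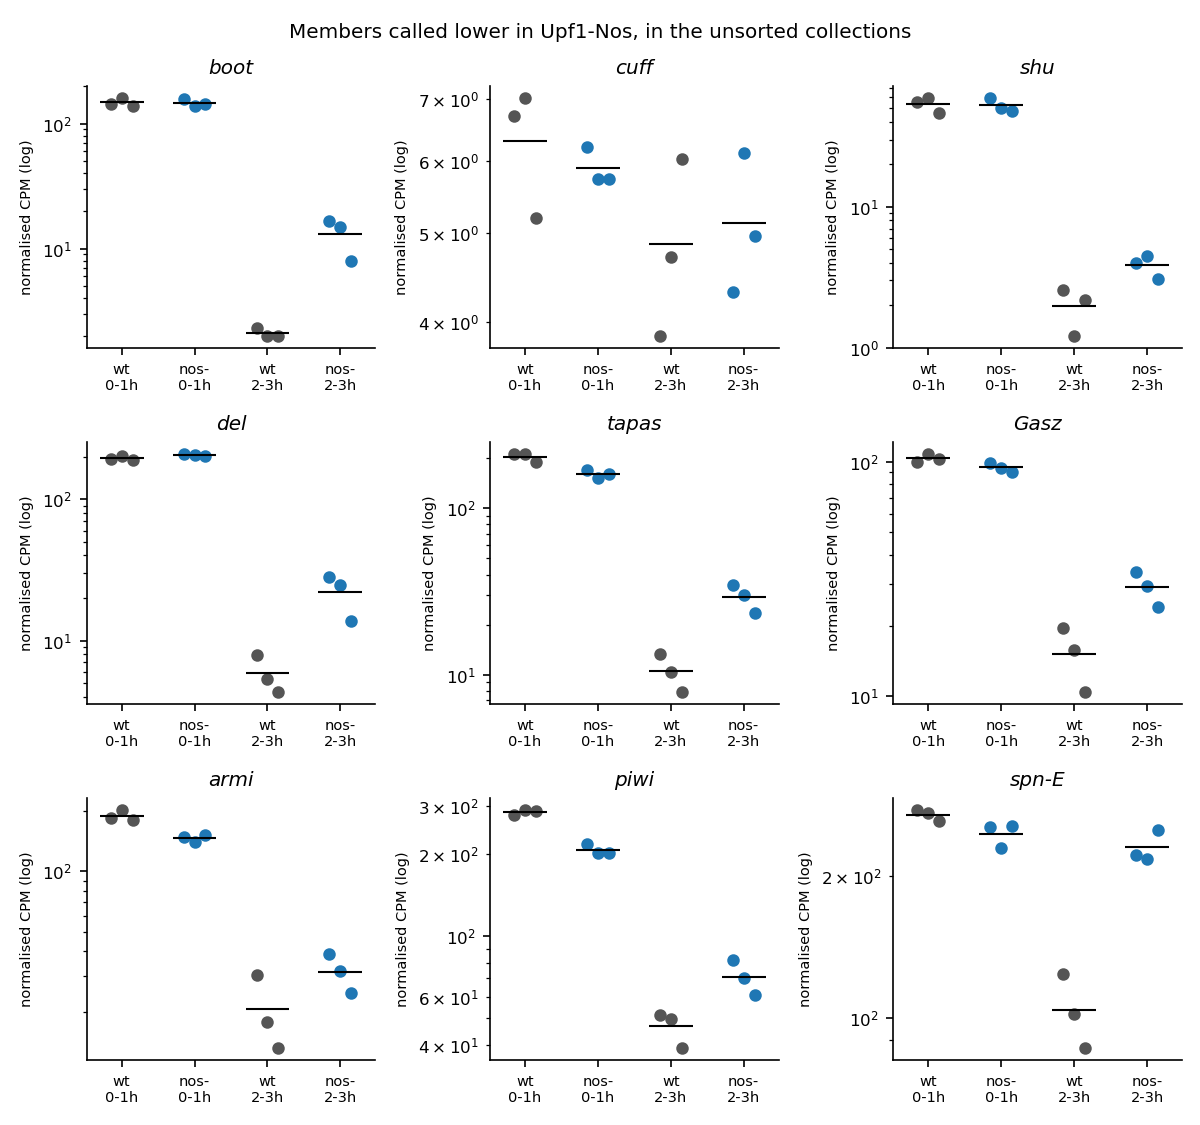
Normalised CPM (y axis, log scale, range set for each gene) of the 9 members called lower in Upf1-Nos, in the 3 libraries of each unsorted group (x axis). Bars are means. boot falls from between 139.6 and 161 in wt at 0-1h to between 1.99 and 2.32 at 2-3h, with nos- at 7.89 to 16.7, while cuff overlaps in all 4 groups.

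On the lower side, rhi was at 33.7, 35.0 and 36.5 normalised CPM in nos- and at 118, 124 and 112 in wt (log2 -1.75 ± 0.10, adjusted p = 7.75e-07). AGO3 was at 152, 154 and 181 normalised CPM in nos- and at 343, 344 and 320.1 in wt (log2 -1.05 ± 0.12, adjusted p = 6.95e-05). BoYb, which acts with armi in processing, was at 38.4, 31.5 and 37.9 normalised CPM in nos- and at 76.4, 71.1 and 53.6 in wt (log2 -0.90 ± 0.13, adjusted p = 3.22e-04). All 3 had also been called lower at 0-1h.

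tej was at 90.0, 87.7 and 97.7 normalised CPM in nos- and at 149, 156 and 139 in wt (log2 -0.69 ± 0.08, adjusted p = 1.11e-04). krimp, which brings Aub and AGO3 together, was at 78.3, 68.0 and 67.1 normalised CPM in nos- and at 128, 115 and 81.0 in wt (log2 -0.60 ± 0.14, adjusted p = 0.00513). zuc was at 37.7, 45.4 and 39.8 normalised CPM in nos- and at 58.3, 62.0 and 63.2 in wt (log2 -0.58 ± 0.09, adjusted p = 5.43e-04). krimp was no longer past the threshold without wt replicate 1 (-0.46), nor was zuc without wt replicate 3 or nos- replicate 1. aub, at 104, 98.1 and 115 normalised CPM in nos- and at 164, 155 and 129.9 in wt, was just past the threshold (log2 -0.50 ± 0.09, adjusted p = 0.00125), and 8 alternatives took it short of it. cuff had a log2 change of 0.08 ± 0.25.

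Whether the nos- effect changed with stage was tested directly, as the effect at 2-3h less that at 0-1h. 8 of 29 members (27.6%) had a larger value at 2-3h, against 12.4% of all genes, and 0 had a smaller one by edgeR or by DESeq2, against 10.1%, with 8 below 0 at an unadjusted p under 0.05. boot (2.66 ± 0.32 on the log2 scale, adjusted p = 5.77e-04), del (1.86), tapas (1.84), spn-E (1.28), piwi (1.07), Gasz (1.07), armi (1.00) and shu (1.00) were those called. rhi, with nearly equal effects at both stages, had a difference of 0.06 ± 0.14 (adjusted p = 0.78). In nos- embryos alone, 11 of 29 members (37.9%) were still called lower at 2-3h than at 0-1h, against 30.2% of all genes, and 1 (egg, log2 0.50) higher, against 18.4%. shu had the lowest value in that comparison (-3.76), followed by boot (-3.47), del (-3.21) and tapas (-2.45).

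The experiments share no library, so their calls can be crossed. Of the 28 members tested in both, 9 were lower in Upf1-Nos and 8 were higher in nos- at 2-3h. Both were made for 7 members, boot, del, Gasz, piwi, shu, spn-E and tapas, which is 77.8% of the depleted and 87.5% of the higher ones. For all genes the shares were 42.8% and 85.2%, and 4.84% of the genes not depleted were higher in nos-. Likewise 8 of the 9 were called lower during the transition in wt, all but cuff, which is 88.9% of the depleted members, where the share over all depleted genes was 87.3%. armi and cuff were depleted by Upf1-Nos without a call at 2-3h in nos-, and moon was called there without being depleted.

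**Figure D4:**
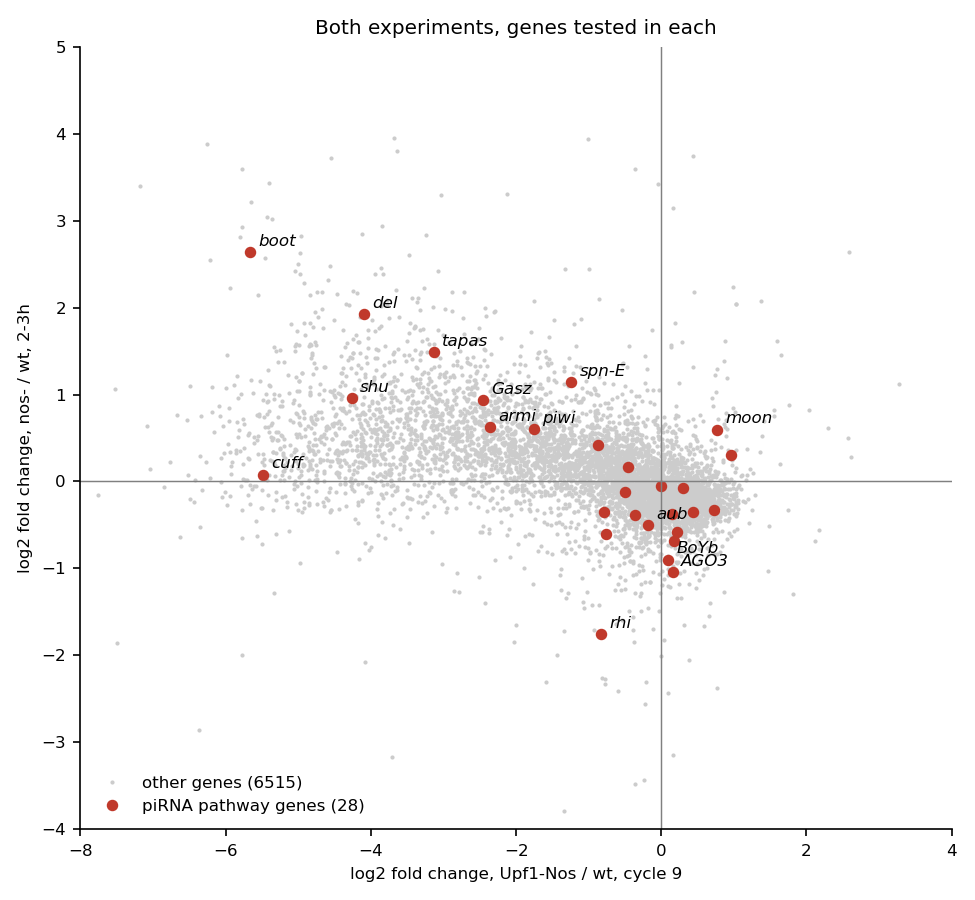
Log2 fold change in Upf1-Nos against wt at cycle 9 (x axis) and in nos- against wt at 2-3h (y axis) for the 28 members (red) and the 6515 other genes (grey) tested in both, with 10 genes beyond the axes. The 7 members with both calls lie in the upper left, cuff lies at -5.48 and 0.08, and rhi lies at -0.83 and -1.75.

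Among the members, rhi and mael were apart from wt in every other genotype of both experiments. How many of all genes were likewise apart was not counted. In Nos against wt, 1 of 30 members (3.33%) was called lower against 2.87% of all genes, and 1 higher against 2.73%. The lower one was rhi, at 70.8, 75.8 and 69.9 normalised CPM in Nos against 209.9, 220.1 and 176 in wt (log2 -1.49 ± 0.11, adjusted p = 3.33e-07). The higher one was mael, an HMG-domain protein acting after Piwi, at 224, 231 and 232 normalised CPM in Nos against 100.5, 87.9 and 107 in wt (log2 1.22 ± 0.11, adjusted p = 1.52e-06). No library of wt overlapped with Nos for either gene.

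rhi was also at 115 to 133 normalised CPM in Upf1, at 123 to 157 in Upf1-NosL7 and at 112 to 116 in Upf1-Nos, below every wt library, though short of 2-fold. In Upf1-Nos this rests on the correction, as without it the log2 change of rhi was -0.25 with an adjusted p of 0.0583. mael was at 173 to 199.8 in Upf1, at 144 to 162 in Upf1-NosL7 and at 173 to 216 in Upf1-Nos, above every wt library. At 0-1h, rhi was at 27.1, 33.4 and 27.3 normalised CPM in nos- and at 89.6, 111 and 109 in wt (log2 -1.82 ± 0.10, adjusted p = 1.01e-06). mael was at 121 to 123 in nos- and at 77.8 to 83.3 in wt at that stage (log2 0.62 ± 0.07), and moon at 42.5 to 49.3 in nos- and at 21.6 to 24.3 in wt (log2 0.99 ± 0.11). moon, by contrast, overlapped wt in Upf1 (44.9 to 59.7 against 34.1 to 50.02 normalised CPM). The sorted comparisons share the same wt libraries, and every other genotype differs from w1118 in more than the named gene, which cannot be told apart from its effect here.

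**Figure D5:**
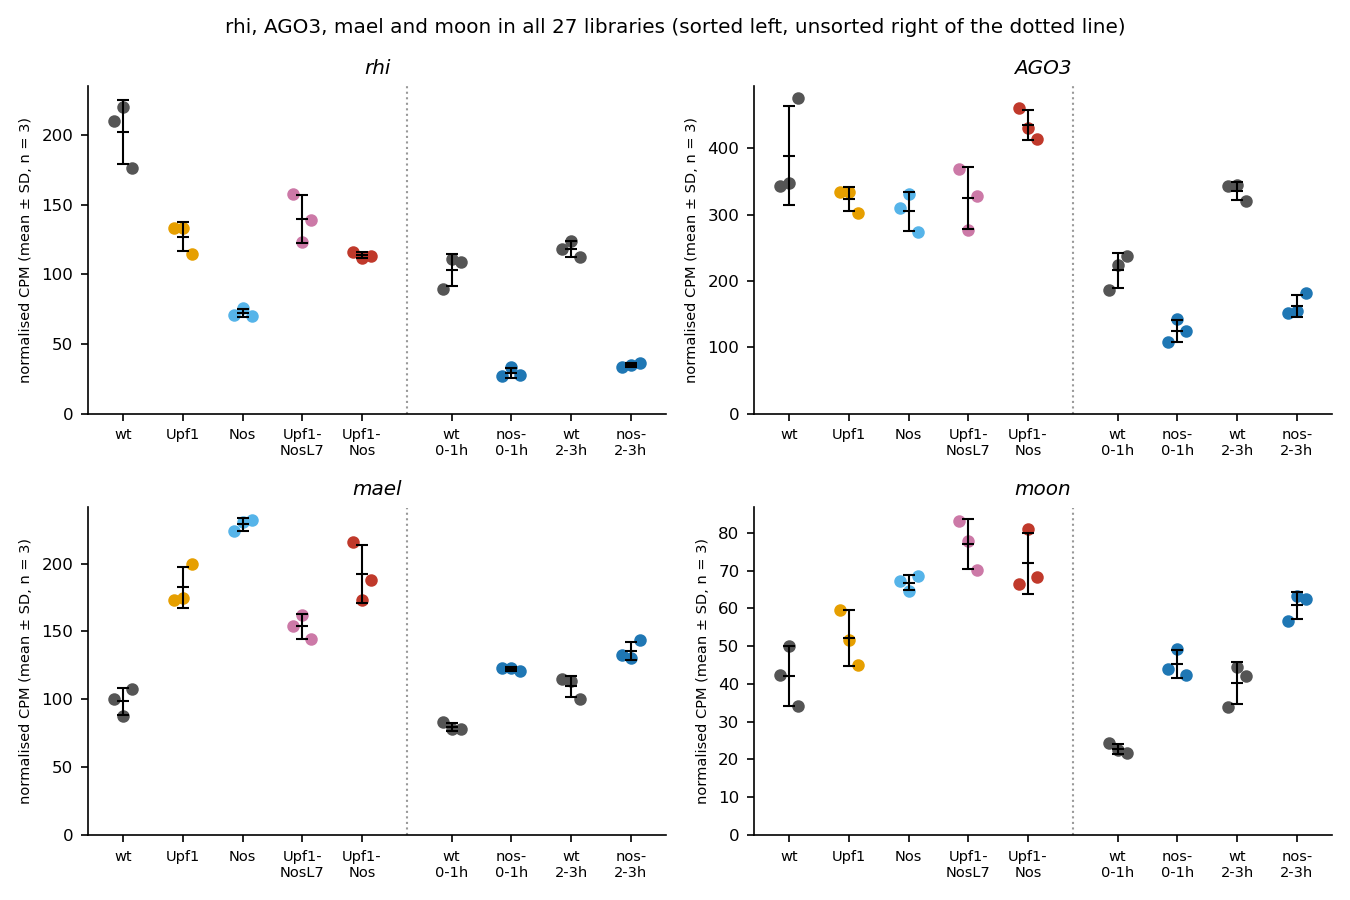
Normalised CPM (y axis) of rhi, AGO3, mael and moon in all 27 libraries by group (x axis), with mean and SD of 3. Sorted and unsorted groups were normalised separately. rhi lies below wt in each of the other sorted genotypes and in nos-, at 27.1 to 36.5 in nos- against 89.6 to 124 in wt, and mael lies above wt in the same groups.

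Genes that work with the pathway but are not members were read from a further list of 27, all tested. In Upf1-Nos against wt, 7 (25.9%) were called lower and 2 (7.41%) higher, beside 39.3% and 1.05% of all genes. The largest falls were those of Nbr, the exonuclease that trims piRNA ends (log2 -5.79 ± 0.18, adjusted p = 3.32e-12), Hsp83, the fly Hsp90 chaperone (-4.42 ± 0.23), Hop, its co-chaperone (-4.34 ± 0.16), and vas, the helicase that founds nuage (-4.32 ± 0.17). Those higher were Trf2 (1.29 ± 0.39, adjusted p = 0.00972) and Mi-2 (1.03 ± 0.35, adjusted p = 0.017). The libraries of Mi-2 overlapped, at 280 to 549 normalised CPM in Upf1-Nos and 147 to 319 in wt, and those of Trf2 did not. Against wt, Trf2 and Mi-2 were at 0.75 and 0.84 in Upf1 and at -0.96 and -0.67 in Upf1-NosL7, without a call. At 2-3h in nos-, 6 (22.2%) were called higher and 1 (3.70%) lower, beside 18.6% and 8.80% of all genes, led by vas (1.39 ± 0.17), Nbr (1.01 ± 0.17), Hsp83 (1.00 ± 0.17) and Hop (0.79 ± 0.14), with TfIIA-S, a cofactor of moon, lower (-0.79 ± 0.10). In wt, 6 (22.2%) were lower and 14 (51.9%) higher at 2-3h than at 0-1h, beside 33.0% and 34.1% of all genes. The source locus flam, a cluster active in follicle cells, was at 0.5 to 0.886 normalised CPM in wt and 2.30 to 2.81 in Upf1-Nos, levels too low for a reading, and it was left out as called in Upf1.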

How the data were processed

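Reads came from poly(A)-selected RNA. The authors trimmed adapters and low-quality bases, removed mitochondrial, transfer and ribosomal RNA, aligned with STAR 2.5.3a and estimated expression with RSEM 1.3.0 on the Ensembl BDGP6.22 annotation, giving the deposited expected counts and TPM per gene and isoform. Symbols came from a reference table and isoform features from the BDGP6.54 annotation. Expected counts were rounded. Genes with at least 30 counts by filterByExpr were kept (6857 sorted, 8445 unsorted). edgeR 4.0.16 (R 4.3.3) fitted all libraries of an experiment with TMM factors and a quasi-likelihood F test with Benjamini-Hochberg adjustment. Factors of the Upf1-Nos libraries were replaced by their mean CPM ratio to wt over the 20 genes that the study lists. Calls needed an adjusted p under 0.05 and a change over 2-fold (sorted) or log2 0.5 (unsorted). Genes called in Upf1 (276) were left out of the Upf1-Nos and Upf1-NosL7 counts. Normalised CPM are counts over the corrected library size.

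All members are named. Values per library are given for piwi, aub and AGO3 and for the 6 called members with the largest change in each direction in the Upf1-Nos, nos- 2-3h and wt stage comparisons, where libraries do not overlap. Further genes are named where called in Upf1-Nos or nos- at 2-3h, at most 4 a direction. Some others are given in more detail, chosen after their values were seen. Members and lists were chosen with earlier results of these data known. Replicates differed by more than sampling noise (chi-square per gene 6.54 to 132 over 27 pairs). Same-numbered libraries deviated together in nos- against wt (correlations 0.151 to 0.488 at 0-1h and 0.117 to 0.482 at 2-3h). The labels do not state a pairing. The values given come from fits without it, and a fit with the replicate number as a block was an alternative. Counting on strand is not given in the sources used here, so members whose exons overlap other genes are less certain. The overlap was largest for armi, mino, nxf2, boot, squ, egg and mael, from 99.6% of exon length in armi to 11.5% in mael. Several other members had smaller overlaps, the largest being 6.2% in piwi. The fits were also run on simulated counts in which few genes changed, in both directions, and the correction genes did not. Such counts cannot test the correction, and their outcome is not given here. DESeq2 1.42.0 and other alternatives are given in the closing section.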

Additional observations from a re-analysis of the deposited data

Results flagged for a closer look

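The nos- effect differed between 0-1h and 2-3h for 8 members by the direct test of the difference in edgeR. On the log2 scale the difference was 2.66 for boot, 1.86 for del, 1.84 for tapas, 1.28 for spn-E, 1.07 for piwi, 1.07 for Gasz, 1.00 for armi and 1.00 for shu. For each of them the effect at 0-1h was not called and every nos- library at 2-3h was above wt, except that armi had overlapping libraries there. Not being called at 0-1h did not mean no change. For piwi, armi, spn-E, Gasz and tapas the nos- libraries at 0-1h lay below every wt library. That lower level at 0-1h is part of their difference. With the largest adjusted p of the 8, armi was lost when any of 9 single libraries was left out, and shu when any of 5 was.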

How the results depend on the processing

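Under the alternatives, 248 member counts stayed within 1.5 times of those given and 48 did not. Values of members called in a comparison, and of piwi, aub and AGO3, kept direction and side of the threshold 1056 times, kept only direction 55 times and changed sign 3 times. Among these the sign changes were those of aub in Upf1-Nos against wt, at 0.381 without the correction, 0.389 by DESeq2 and 0.04 without wt replicate 3, the top of a range from -0.389 when 1 library was left out.

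By adjusted p alone, 14 members were lower and 4 higher in Upf1-Nos, 2 lower and 1 higher in Upf1-NosL7, 2 lower and 3 higher in Upf1, and 2 lower and 6 higher in Nos, all against wt. In the same way 13 were lower and 5 higher in Upf1-Nos against Upf1-NosL7, 6 lower in nos- at 0-1h, 11 lower in nos- at 2-3h, 11 higher at 2-3h in wt, 8 higher at 2-3h in nos-, and 3 lower in the difference of nos- effects. Shares of all genes by adjusted p alone, or at the 2-fold threshold below, are not given here. Those member counts therefore have no background. Without the correction of the Upf1-Nos libraries, 5 members were higher against wt and 3 against Upf1-NosL7, and DESeq2 gave 5 and 3. Of all genes, 647 and 791 were then higher, and 657 and 734 by DESeq2, where 69 and 270 were with the correction. The calls of all genes against Upf1-NosL7 went from 90.2% to 71.2% lower without it. With a median ratio in the correction, or with members called in Upf1 kept in, 2 were higher against wt, and with the most abundant isoform 0 were. Fits of only the groups compared gave 0 higher in Upf1, 0 higher in Upf1-Nos against Upf1-NosL7 and 4 higher at 2-3h in wt, and moved the calls of all genes in nos- at 0-1h from 38.1% to 50.2% lower. At a 2-fold threshold, 1 was lower and 0 higher in nos- at 0-1h, 2 lower and 4 higher in nos- at 2-3h, and 0 higher at 2-3h in wt or in nos-. For nos- at 2-3h against 0-1h, no filter gave 0 higher, the default filter 0 and DESeq2 2. For the difference of nos- effects, DESeq2 called 28.0% of all called genes lower against 44.8%. The cause of these changes was not tested.

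Leaving out 1 library at a time gave 1 to 3 members higher in Upf1-Nos against wt (3 without wt replicate 3, with egg and mael), 0 to 1 in Upf1-NosL7, 0 to 1 in Upf1, 1 to 2 in Upf1-Nos against Upf1-NosL7, 4 to 7 at 2-3h in wt and 0 to 2 at 2-3h in nos-, and 0 to 1 lower in the difference of nos- effects. With the replicate number as a block, the pairing changed no member's call apart from armi in nos- at 2-3h, where 10 members rather than 9 were higher. In other comparisons the libraries share only a number. cuff and fs(1)Yb, with a few counts in a group, are limited by depth.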
